A study of Homo sapiens with 15 samples.

Results

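The genes described here were the expressed long intergenic noncoding RNA (LINC) genes of A673 cells, a human Ewing sarcoma line. Members were chosen by symbol and by mean count. A gene was a member when its symbol consisted of LINC followed by digits only and its mean raw count over the 15 RNA-seq libraries was at least 10. Of 57820 genes counted, 376 carried such a symbol, and 166 of these, with 165 distinct symbols, reached the mean count. The remaining 210 lay below it. The rule used the mean over all 5 conditions together and no comparison between them, although a gene expressed in few conditions needed a high level there to pass. Just inside the limit were LINC01250 with a mean of exactly 10 counts, LINC00618 with 10.1 and LINC00173 with 10.3, and just outside it were LINC00922 and LINC01460 with 9.93 each and LINC01583 with 9.80.

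Long intergenic noncoding RNAs are transcripts that are spliced and polyadenylated like messenger RNAs but lie between protein-coding genes and carry no long open reading frame. Many are expressed at low levels and in few cell types, and for most of them no function is known. EWS/FLI, the fusion oncoprotein of Ewing sarcoma, joins the EWS domain, a low-complexity region rich in tyrosine, to the ETS DNA-binding domain of FLI. It binds single ETS sites and also microsatellites made of repeated GGAA motifs, where it can open chromatin and activate transcription at a distance.

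The study asked which parts of the EWS domain are needed for transcription, using 5 conditions with 3 libraries each. In iLuc cells the shRNA was directed at luciferase and the vector was empty, so that endogenous EWS/FLI (endo-EF) was kept. In iEF cells the shRNA was directed at EWS/FLI and the vector was again empty. The remaining cells carried the EWS/FLI shRNA together with a 3X-FLAG-tagged cDNA, which was wildtype EWS/FLI (WT-EF), Δ22, which lacks the EWS domain, or DAF, in which tyrosines in the amino-terminal part of the EWS domain were changed to alanine and those further along it were kept. Retroviruses delivered the shRNA (day 1) and later the cDNA (day 5). Pooled infected cells were selected in puromycin (2 μg/mL) and hygromycin (400 μg/mL) until harvest on day 16. All conditions thus came from 1 line, and the cells were selected populations rather than clones.

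Total counts per library ranged from 28659475 to 41859880, and LINC members took between 0.0342% and 0.0554% of them. Levels are given as CPM, the usual unit of counts relative to library size, with sizes scaled by TMM, and differences as log2 fold changes from 1 edgeR quasi-likelihood fit over all 28793 genes with a mean of at least 1 count. A gene was called when its p-value, adjusted over all of these genes, was under 0.05. The SE after a log2 fold change is approximate. It is the absolute fold change divided by the square root of the test's F statistic, and is rough where a group is near 0 reads. FLI1, whose reads come from the fusion as well as from each cDNA, averaged 49.4 CPM in iLuc, 14.6 in iEF, 17.6 in WT-EF, 31.2 in Δ22 and 24.3 in DAF. Of 13 genes listed for Ewing sarcoma identity or as EWS/FLI targets, FLI1 among them, 11 were higher in iLuc than in iEF. CCND1 was not called, and the CD99 entry held at most 3 counts in any library and gave no check. Of 10 mesenchymal genes, listed as raised when EWS/FLI is depleted, 9 were lower in iLuc. Their summed level was 2163 to 2699 CPM in iLuc and 27287 to 32564 CPM in iEF. Both lists were picked for a known response to EWS/FLI, so they check the depletion and not cell identity. The mesenchymal list changed mostly in 1 direction, whereas the LINC genes described below moved in both. Any part of its change in theirs was not tested. Leukocyte markers summed to at most 1.07 CPM and the 2 endothelial markers found to at most 0.858 CPM in every library, and the 5 epithelial markers to between 27.1 and 110 CPM, nearly all of it KRT8 and KRT18. In bulk RNA, fewer cells that express a gene and less RNA per cell cannot be told apart.

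Of the 166 members, 160 were found by identifier in the GENCODE annotation of GRCh37, where 150 are classed as lncRNA. The annotation now classes 4 as protein-coding, namely LINC00998 (now SMIM30, which encodes a small membrane protein), LINC00094, LINC00176 and LINC01125. Exons of 93 members shared no exonic base with another annotated gene, 67 shared some, and 10 shared most of their exonic length. On either strand, 32 members lay inside or across a protein-coding gene, so not every member is intergenic in this annotation. Of these, 7 were called higher and 8 lower for iLuc against iEF, where 25.9% and 32.5% of all members were called. Over all genes with a mean of at least 10 counts the shares were 26.8% and 31.2%. The strand setting of the counting was not given in the sources used here, so reads of members with an antisense partner cannot be assigned with certainty. The members were weakly expressed as a group. The median of their mean counts was 27.4, 87 members averaged under 30 counts, and 32 averaged at least 100.

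The LINC signal was unevenly spread over the members. LINC00998 alone contributed 9.51% of the summed CPM, the 3 most abundant members 20.3%, and the 20 most abundant 60.0%. Per kilobase of exon, LINC00998 was also highest, at 21.3 CPM per kb, followed by LINC02233 at 18.0 CPM per kb. LINC00998 measured 59.4, 60.7 and 61.4 CPM in the iLuc libraries, 22.7, 25.8 and 21.6 in iEF, and 42.5, 51.3 and 61.4 in WT-EF. Its iLuc and WT-EF libraries lay above every iEF library. The summed CPM of all members was 478 ± 34.4 (SD, n = 3) in iLuc, 382 ± 4.40 in iEF, 424 ± 20.6 in WT-EF, 383 ± 9.59 in Δ22 and 393 ± 17.3 in DAF. Without LINC00998, LINC01547 and LINC02233, a choice made after the values were seen, the order turned round, with 287 ± 6.94 in iLuc, 315 ± 7.66 in WT-EF, 351 ± 10.7 in iEF, 347 ± 6.42 in Δ22 and 343 ± 5.29 in DAF. The higher total in iLuc thus depended on these 3 members, all of them called higher in iLuc. No members high in iEF were left out in return, so the reversed order follows from the choice. It is not read as a result about the remaining members. Without LINC00998 alone the total stayed highest in iLuc, at 418 CPM against 359 in iEF.

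The comparison of iLuc with iEF asked which genes endo-EF keeps high or low. LINC genes moved in both directions, with 43 members higher in iLuc (25.9%) and 54 lower (32.5%). Over all genes tested, 19.5% were higher and 22.1% lower, and over the 17653 genes with a mean of at least 10 counts the shares were 26.8% and 31.2%. The members thus changed about as often as other genes at the same count minimum. Their median log2 fold change was -0.18, beside 0.04 for all genes tested and 0.0001 for those with a mean of at least 10 counts. For the 210 LINC genes below the limit it was 0.22. Genes near 0 in iLuc could pass the rule through the other conditions, so the direction of the members' median is not read as a result. Among antisense RNA genes with a mean of at least 10, 79 of 300 were higher and 63 lower, and among the 210 LINC genes below the limit 37 were higher and 24 lower. Of 27 lncRNAs that bear a name of their own, 11 were higher and 7 lower. Of the members, 17 reached a mean of 10 counts in only 2 conditions, and 14 of these were called, which the rule favours. Among the 93 members that reached it in all 5 conditions, 23 were higher and 23 lower.

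**Figure D1:**
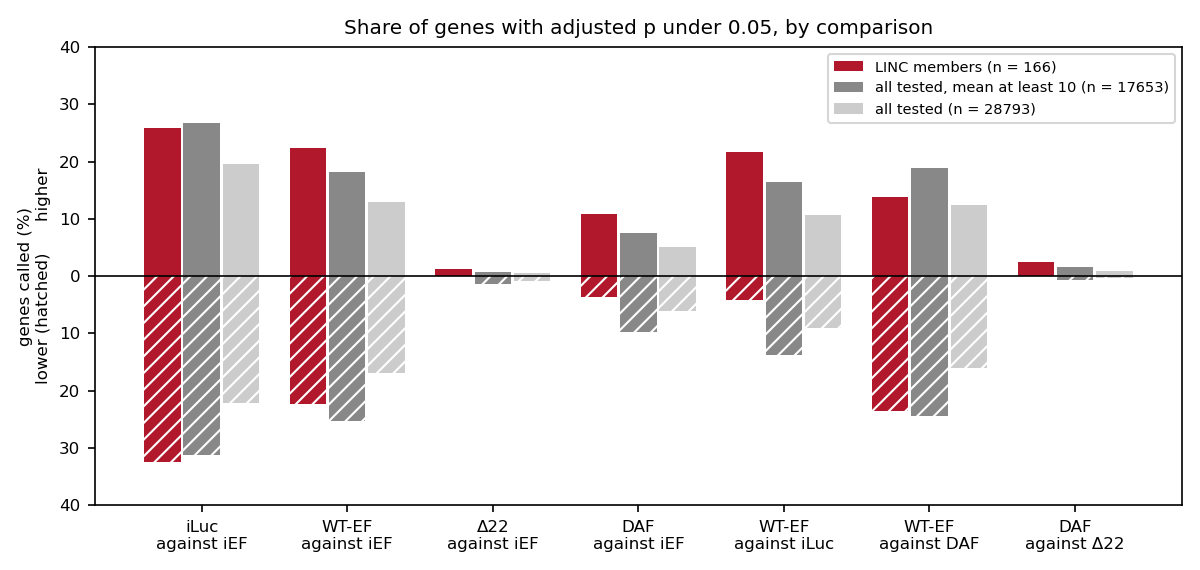
Share of genes called higher (plain bars, upward) or lower (hatched bars, downward), in percent of each list, for 7 comparisons. Red bars are the 166 LINC members, dark grey bars all genes with a mean of at least 10 counts (n = 17653) and light grey bars all genes tested (n = 28793). The red bars reach 25.9% and 32.5% for iLuc against iEF and 1.20% for Δ22 against iEF.

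The largest rise with endo-EF among members with a mean of at least 30 counts was that of LINC00463. It measured 3.91, 2.36 and 3.91 CPM in iLuc and 0, 0.0674 and 0 CPM in iEF. The 343 reads of the iLuc libraries stood against 2 reads in iEF, a ratio of 172 whose exact 95% interval of 47.2 to 1425 covers counting error only, and the fitted log2 fold change was 7.19 ± 0.63 (SE, adjusted p = 4.05e-07). LINC01249 measured 12.4, 19.8 and 9.46 CPM in iLuc and 0.158, 0.573 and 0.145 in iEF, a log2 fold change of 5.76 ± 0.61. No iLuc library of either gene overlapped the iEF libraries. LINC01547, which lies on chromosome 21 (chr21:46352729-46359856, minus strand), measured 89.9, 121 and 75.7 CPM in iLuc and 2.73, 8.40 and 3.17 in iEF, a log2 fold change of 4.43 ± 0.29 (adjusted p = 2.80e-08). LINC02233 measured 37.3, 44.9 and 24.4 CPM in iLuc and 2.84, 4.79 and 2.30 in iEF. LINC00659 (log2 fold change 3.93), LINC02233 (3.45), LINC00504 (3.20), LINC01033 (3.06), LINC01278 (2.71), LINC01630 (2.61) and LINC01686 (1.75) completed the 10 members named by size of increase, out of 15 that passed every filter of the naming rule.

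Several of the genes that were higher with endo-EF lie near long GGAA microsatellites. In GRCh37, 16453 runs of at least 4 tandem copies of GGAA, on either strand, were found, and 3349 of them held at least 10 copies. Within 20 kb of the annotated start, a run of at least 10 copies lay at 9 of the 41 located members that were higher in iLuc (21.95%), 2 of the 52 that were lower (3.85%) and 2 of the 67 that were not called (2.99%). For all tested genes the shares were 7.82%, 3.32% and 3.43%. These counts are small, the window and copy number were chosen after the values were seen, and copy numbers are those of the reference and can differ in A673 cells. They say nothing about binding, which was not measured here.

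The closest long run lay 594 bp upstream of LINC02304 on chromosome 14 (chr14:97621194-97625073, plus strand) and held 15 copies. LINC02304, named here after its values were seen because its mean of 18.5 counts is below the naming limit, measured 1.59, 1.51 and 1.91 CPM in iLuc, 0, 0.0337 and 0 in iEF, 0.969, 0.872 and 0.559 in WT-EF, 0, 0.104 and 0 in Δ22, and 0.141, 0.132 and 0.168 in DAF. Every iLuc and WT-EF library was above every iEF, Δ22 and DAF library. The iEF libraries held 1 read of this gene, against which 170 reads in iLuc gave a ratio of 170 (exact interval 30.2 to 6769, counting error only) and 89 reads in WT-EF a ratio of 81.5 (14.3 to 3254). LINC02325 lies further along the same chromosome, with 11 copies 4975 bp downstream of its start, and had a log2 fold change of 1.61. A run of 16 copies lay 2340 bp upstream of LINC02233 (chr4:160586985-160698980, minus strand), and a run of 11 copies lay 5253 bp inside LINC00463 (chr13:25746957-25754217, minus strand). For LINC00659 the distance was 9275 bp (12 copies), for LINC01788 14087 bp (17 copies), for LINC01547 14459 bp (15 copies), for LINC01812 18405 bp (11 copies) and for LINC01630 19011 bp (12 copies). LINC00654 and LINC00707 were lower in iLuc, and runs of 12 and 14 copies lay 1712 bp and 6409 bp from their starts. LINC01011 and LINC01954 were not called, with 15 copies at 8865 bp and 10 copies at 9449 bp.

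**Figure D2:**
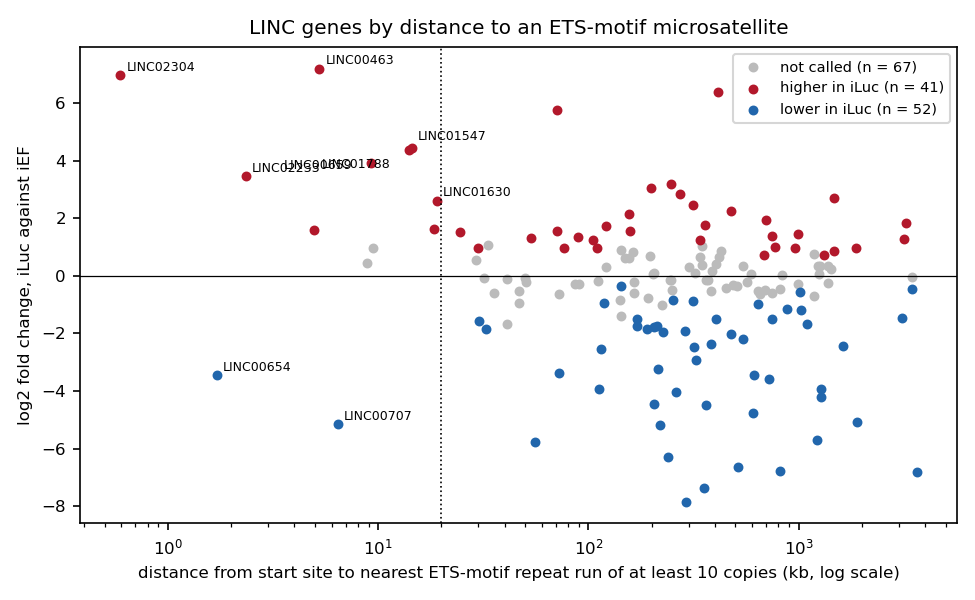
Distance from each member's start site to the nearest ETS-motif repeat run of at least 10 copies (horizontal axis, kb, log scale) against its log2 fold change for iLuc against iEF (vertical axis). Points are the 160 located members, red where called higher, blue where called lower and grey otherwise, and the dotted line marks 20 kb. Left of the line lie 9 red, 2 blue and 2 grey points.

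The runs at LINC02304, LINC02233 and LINC00463 are printed because these genes have a run near the start and were called higher in iLuc, WT-EF and DAF. LINC01630, whose run lies further away, was called in the same 3 comparisons. The DAF call of LINC02304 (adjusted p = 0.0493) rests on 14 reads against 1 in iEF, a ratio of 14.9 (exact interval 2.26 to 628). Each is given on the plus strand of GRCh37 with 30 bases on either side, the uninterrupted run being in capitals, for chr14:97620511-97620630, chr4:160701290-160701413 and chr13:25748891-25748994. All 3 read TTCC on this strand, which is GGAA on the other.
LINC02304: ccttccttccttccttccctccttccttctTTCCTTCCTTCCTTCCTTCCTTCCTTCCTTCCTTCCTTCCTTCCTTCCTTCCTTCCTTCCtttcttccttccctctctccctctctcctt
LINC02233: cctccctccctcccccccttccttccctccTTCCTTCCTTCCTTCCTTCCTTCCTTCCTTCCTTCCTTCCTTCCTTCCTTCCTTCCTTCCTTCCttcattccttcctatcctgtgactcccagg
LINC00463: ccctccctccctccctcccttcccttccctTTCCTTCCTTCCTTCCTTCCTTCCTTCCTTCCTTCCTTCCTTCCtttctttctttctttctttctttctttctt

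Short ETS motifs were counted at the promoters as well. RefSeq promoters of 300 bases, taken from GRCh38.p14, were matched for 125 members. The ETS core CGGAAG, on either strand, was found in 18.4% of them and in 19.9% of all 27305 promoters, and in 22.2% of the 36 members that were higher in iLuc and 11.9% of the 42 that were lower. GGAAGGAA was found in 7.20% of the members' promoters and 3.58% of all promoters, and no member's promoter held 3 copies in tandem. LINC01547 stood out by 3 matches to the core, in capitals below, and its promoter is printed on the gene's minus strand (chr21:44939864-44940163, GRCh38.p14).
LINC01547: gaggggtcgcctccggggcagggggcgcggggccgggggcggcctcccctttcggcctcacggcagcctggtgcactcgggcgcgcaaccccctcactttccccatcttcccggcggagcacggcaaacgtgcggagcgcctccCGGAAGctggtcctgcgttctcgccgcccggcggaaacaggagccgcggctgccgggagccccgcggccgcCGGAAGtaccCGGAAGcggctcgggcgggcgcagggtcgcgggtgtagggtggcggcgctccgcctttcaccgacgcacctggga

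Among the 54 members that were lower in iLuc, several were hardly expressed in iLuc cells. LINC00161 (chr21:29911640-29912677, plus strand) measured 0.0611, 0 and 0 CPM in iLuc and 9.22, 2.26 and 4.39 in iEF. Its 2 reads in iLuc stood against 569 in iEF, a ratio of 284 with an exact interval of 78.2 to 2350 for counting error, and a log2 fold change of -7.85 ± 0.61 (adjusted p = 1.15e-07). LINC01204 measured 0.0306, 0.0842 and 0 CPM in iLuc and 5.57, 2.97 and 5.47 in iEF. In both genes the iLuc libraries were close to 0 and the iEF libraries differed by up to a few fold among themselves. LINC00511, a lncRNA widely described as raised in carcinomas, measured 1.10, 0.785 and 1.79 CPM in iLuc and 17.7, 19.1 and 22.8 in iEF, a log2 fold change of -4.04 ± 0.20 (adjusted p = 2.05e-09). LINC00707, also described in carcinomas, measured 0.703, 0.196 and 0.418 CPM in iLuc and 21.2, 11.5 and 11.8 in iEF. The other named members of the group were LINC01629 (log2 fold change -6.63), LINC01615 (-5.77), LINC01411 (-5.17), LINC00565 (-5.08), LINC01588 (-4.20) and LINC02407 (-3.95), out of 25 that passed every filter. LINC01629 and LINC01615 had 2 reads each over the iLuc libraries, against 230 and 128 in iEF. The ratios were 115 (exact interval 31.4 to 953) and 63.9 (17.3 to 533). LINC00565 is now named SWINGN, after an interaction with SWI/SNF and a nearby enhancer of GAS6, and LINC02407 is now named LNCOG.

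**Figure D3:**
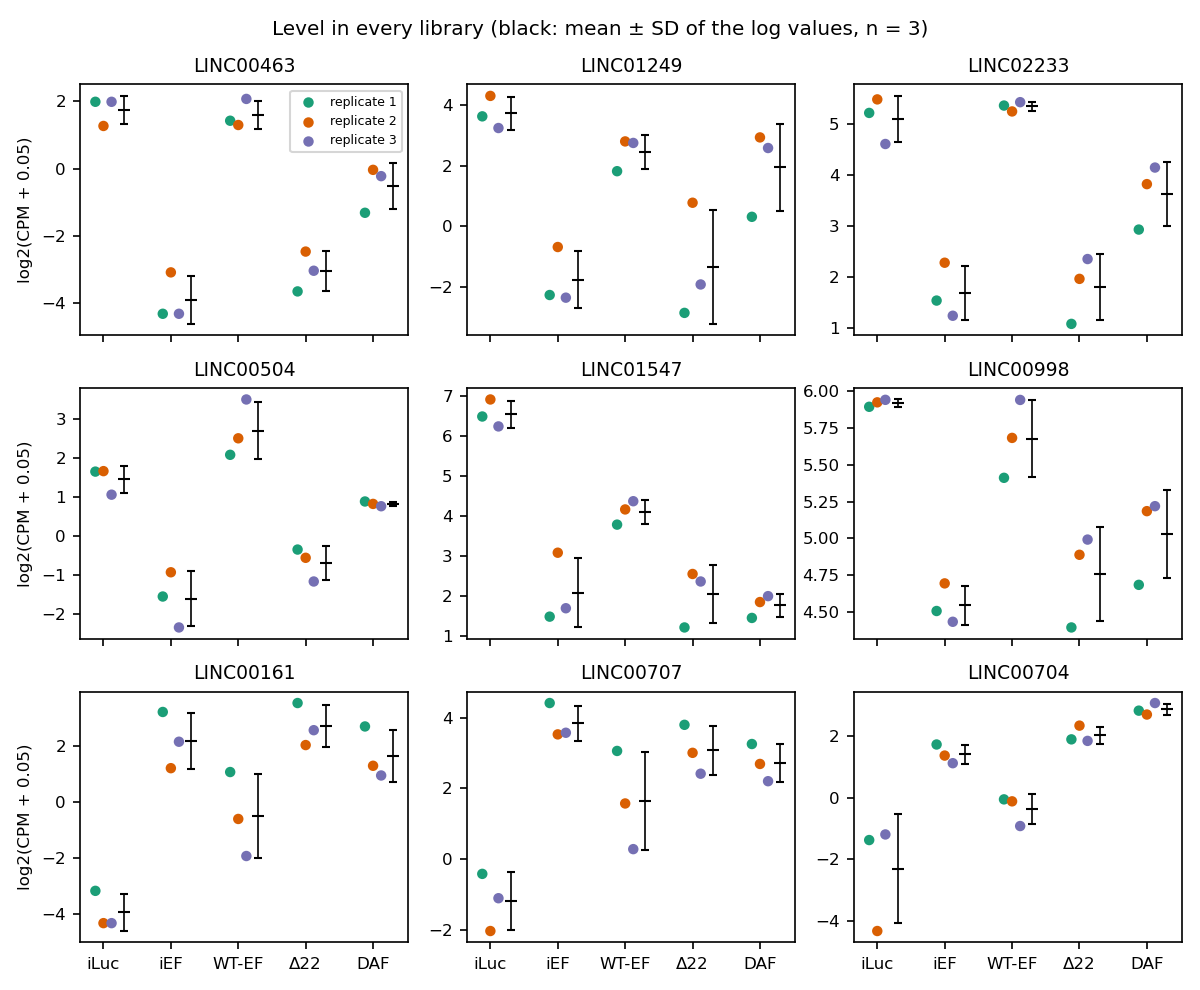
Level of 9 members in every library, as log2(CPM + 0.05) on the vertical axis, by condition on the horizontal axis. Points are libraries coloured by replicate number, and the black mark and bar beside them are the mean ± SD of the log values (n = 3). LINC00161 and LINC00707 are lowest in iLuc and lower in WT-EF than in iEF, while LINC01547 is high in iLuc and intermediate in WT-EF.

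WT-EF was compared with iEF to see which of these genes the exogenous fusion restored. The same iEF libraries served in every comparison with iEF, so the lists are given side by side and their overlap is not read as a result. With WT-EF 37 members were higher (22.3%) and 37 lower (22.3%), beside 12.9% and 17.0% of all genes tested and 18.1% and 25.3% of those with a mean of at least 10 counts. LINC00463 measured 2.63, 2.40 and 4.15 CPM (log2 fold change 7.01 ± 0.64), LINC02233 41.2, 38.1 and 43.2 CPM (3.67 ± 0.33) and LINC00504 4.18, 5.63 and 11.3 CPM (4.55 ± 0.44). For LINC00463 the 342 reads in WT-EF against 2 in iEF gave a ratio of 157 (exact interval 43.0 to 1298). All 9 of these WT-EF values were above every iEF value of the same gene. LINC01249 (4.44), LINC00659 (3.74) and LINC01630 (2.97) completed the 6 named increases out of 16. LINC01033, which was among the named increases of iLuc, ranged from 0.886 to 3.99 CPM between the WT-EF libraries.

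Lower with WT-EF were LINC01629 (-3.46), LINC01588 (-3.12), LINC01204 (-2.70), LINC00161 (-2.59), LINC00654 (-2.52) and LINC00565 (-2.19), the 6 largest of 18 decreases. LINC00161 measured 2.05, 0.608 and 0.213 CPM in WT-EF and LINC00707 8.28, 2.93 and 1.17 CPM. In both genes the WT-EF libraries were below the iEF libraries but differed by several fold from each other, with replicate 1 highest. LINC02407 was not called, at 3.18, 2.88 and 1.81 CPM in WT-EF against 2.92, 2.36 and 4.13 in iEF (log2 fold change -0.21, adjusted p = 0.680). Leaving out the WT-EF replicate 3 library took the number of members higher from 37 to 24.

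**Figure D4:**
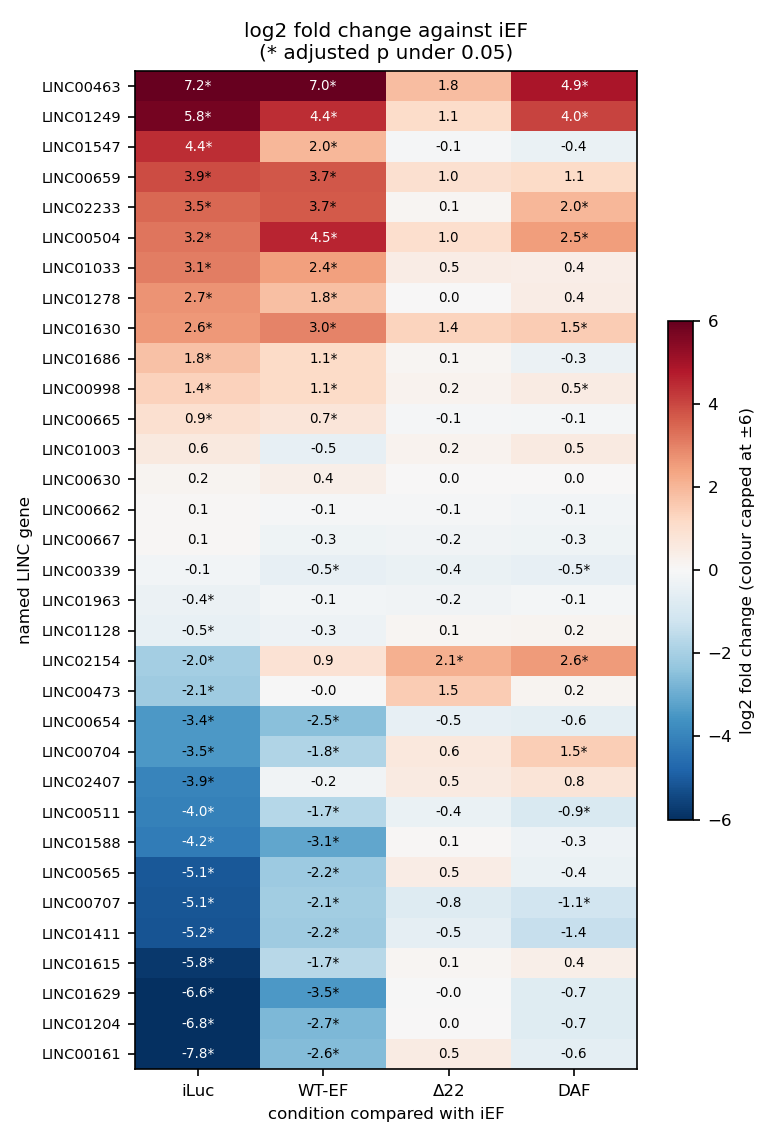
Log2 fold change against iEF (colour, capped at 6 in either direction, with the value printed) for the 33 named members in rows and the 4 conditions in columns, ordered by iLuc. An asterisk marks an adjusted p under 0.05. The Δ22 column carries 1 asterisk, at LINC02154.

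WT-EF was also compared directly with iLuc, without the iEF libraries. Here the members were lopsided, with 36 higher in WT-EF (21.7%) and 7 lower (4.22%). The shares were 10.7% and 9.03% of all genes tested and 16.4% and 13.8% of genes with a mean of at least 10 counts. Among the 210 LINC genes below the limit 6 were higher and 7 lower, without this skew. For 15 members a group held at most 3 counts in every library. Genes near 0 in iLuc passed the rule through the other conditions, which favours calls in this direction. The median log2 fold change of the members was 0.17, beside -0.01 for all genes. The members higher in WT-EF were led, by the naming rule, by LINC00161 (5.26), LINC01615 (4.09) and LINC01204 (4.08). These are genes that were near 0 in iLuc, so that 105 reads in WT-EF stood against 2 in iLuc for LINC00161, a ratio of 48.0 (exact interval 12.9 to 401, counting error only), and 45 against 2 for LINC01615, a ratio of 20.6 (5.37 to 175). On the ComBat-adjusted table the call of LINC00161 was lost, and that of LINC01204 was lost without replicate 1 of all conditions. LINC02407 was higher in WT-EF by 3.73 ± 0.42 and LINC00511 by 2.32 ± 0.19. LINC00511 measured 5.79, 6.05 and 6.07 CPM in WT-EF, above all iLuc libraries and below all iEF libraries.

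LINC01547 showed the reverse. WT-EF brought it to 13.7, 17.9 and 20.6 CPM, above the iEF libraries (log2 fold change 1.98 ± 0.28) and below the iLuc libraries (-2.46 ± 0.26, adjusted p = 2.64e-05). LINC01249 and LINC01003 were also lower in WT-EF than in iLuc (-1.32 and -1.08), with adjusted p of 0.0495 and 0.0284, and these calls were lost in 15 and 5 of the 26 alternatives, among them the fits without iLuc replicate 1 and without WT-EF replicate 1 or 2. LINC00463, LINC00659 and LINC02233 did not pass the test, with differences of -0.18 ± 0.34, -0.20 ± 0.28 and 0.21 ± 0.29. The number higher fell to 23 without WT-EF replicate 1. The number lower became 4 without the replicate block, 11 on the ComBat-adjusted table and 4 without iLuc replicate 1. It became 3 without WT-EF replicate 1 or replicate 2, and 13 without WT-EF replicate 3. For these fits, shares over all genes are not given.

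Δ22, which carries the DNA-binding domain without the EWS domain, gave few calls among the LINC genes. Against iEF, edgeR called 2 members higher (1.20%) and 0 lower. Over all genes tested the shares were 0.472% and 0.830%, and over those with a mean of at least 10 counts 0.759% and 1.35%. DESeq2 called 6 higher and 0 lower, the fit with no filter on low counts 10 and 2, and the fit to only the 6 libraries compared 1 lower. The filters by filterByExpr and by a mean of at least 10 counts, and the ComBat-adjusted table, each gave 4 higher. Shares over all genes are not given for these other fits. In the fit with the chosen settings 17 and 11 members had an unadjusted p under 0.05. Of the 17653 genes with a mean of at least 10 counts, 1458 and 1864 did. The 2 members called in that fit were LINC02154 and LINC01435, the latter named after its values were seen. LINC02154 measured 2.78, 3.91 and 3.57 CPM in Δ22 and 0.815, 0.776 and 0.756 in iEF (log2 fold change 2.13 ± 0.40, adjusted p = 0.0183). LINC01435 measured 1.11, 1.38 and 1.64 CPM in Δ22 and 0.184, 0.236 and 0.378 in iEF (2.37 ± 0.33, adjusted p = 0.00421). Both were above all iEF libraries in Δ22 and in DAF, and neither was called higher in iLuc. The call of LINC02154 was lost without any single iEF library and without Δ22 replicate 2 or 3. LINC02154 was lower in iLuc than in iEF (-2.04), and LINC01435 differed from iEF by -0.30 ± 0.40. For LINC00463 the Δ22 libraries measured 0.0293, 0.130 and 0.0715 CPM, which is 8 reads against 2 in iEF (ratio 4.06, exact interval 0.811 to 39.3). The count of members higher became 4 without iLuc replicate 1 or 3, WT-EF replicate 3 or Δ22 replicate 1, and 1 without any single iEF library or without Δ22 replicate 2 or 3, and the count lower became 1 without WT-EF replicate 3.

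More LINC genes were called higher with DAF than lower. With DAF 18 members were higher than in iEF (10.8%) and 6 lower (3.61%), beside 5.00% and 6.19% of all genes tested and 7.48% and 9.82% of those with a mean of at least 10 counts. LINC00463 measured 0.351, 0.923 and 0.805 CPM in DAF (log2 fold change 4.91 ± 0.75, adjusted p = 0.000792), LINC01249 1.19, 7.62 and 5.97 CPM (4.04 ± 0.61) and LINC00504 1.79, 1.71 and 1.64 CPM (2.52 ± 0.46). The 69 reads of LINC00463 in DAF against 2 in iEF gave a ratio of 36.6 (exact interval 9.76 to 308). The DAF values of these genes lay above all iEF libraries, while those of LINC00463 lay below all iLuc and WT-EF libraries. LINC02154 measured 4.15, 6.23 and 3.82 CPM (2.57 ± 0.40) and was the third of the 4 named increases out of 10. LINC02233 measured 7.56, 14.1 and 17.7 CPM, between the iEF and the WT-EF libraries (1.98 ± 0.33). LINC01547 did not follow, at 2.67, 3.53 and 3.92 CPM (-0.41 ± 0.29, adjusted p = 0.463), nor did LINC00659 (1.13 ± 0.41, adjusted p = 0.0952). LINC01570, named after its values were seen, had its highest level in DAF, at 1.12, 1.45 and 0.704 CPM against 0.609, 0.370 and 0.213 in WT-EF and 0.0263, 0.0674 and 0.0582 in iEF.

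The only decrease with DAF that passed the naming rule was LINC00707, at 9.49, 6.41 and 4.56 CPM against 21.2, 11.5 and 11.8 in iEF (log2 fold change -1.13 ± 0.29, adjusted p = 0.0186), a call that was lost in the fit without the replicate block, on the ComBat-adjusted table and without iEF replicate 3, DAF replicate 1 or DAF replicate 3. LINC00511 was lower as well, at 9.38, 11 and 11.2 CPM (-0.90 ± 0.17, adjusted p = 0.00289). LINC00161, LINC01204, LINC01629 and LINC01588 were not called, with differences between -0.31 and -0.74. The number of members higher was 28 with no filter on low counts and 11 without DAF replicate 2 or replicate 3. The number lower was 10 with only the 6 libraries compared, 3 without iEF replicate 3, 2 without DAF replicate 3 and 10 without WT-EF replicate 3. For these fits, shares over all genes are not given.

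The direct comparison of WT-EF with DAF asked what the amino-terminal tyrosines of the EWS domain add. The fit called 23 members higher in WT-EF (13.9%) and 39 lower (23.5%), beside 12.4% and 16.1% of all genes tested and 18.9% and 24.4% of those with a mean of at least 10 counts. With limma on the ComBat-adjusted counts, 41 members were higher, and the share over all genes is not given for that fit. The named increases were LINC00659 (2.61 ± 0.32), LINC01547 (2.38 ± 0.28) and LINC00463 (2.11 ± 0.38). The named decreases were LINC00704 (-3.27 ± 0.42), LINC01588 (-2.81 ± 0.41) and LINC01629 (-2.72 ± 0.35). LINC00704, now named MANCR and described as a mitotically associated RNA, measured 0.914, 0.872 and 0.479 CPM in WT-EF, 3.26, 2.53 and 2.12 in iEF and 7.03, 6.44 and 8.35 in DAF. Its WT-EF libraries all lay below the iEF libraries (-1.80, adjusted p = 0.00451) and its DAF libraries all above them (1.48, adjusted p = 0.0200). The number lower was 25 without WT-EF replicate 3.

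For DAF against Δ22, 0.948% of all genes tested were higher and 0.379% lower. Of those with a mean of at least 10 counts the shares were 1.51% and 0.612%. Among the members edgeR called 4 higher (2.41%) and 0 lower. These were LINC00463 (log2 difference 3.07 ± 0.59), LINC01249 (2.96 ± 0.54), LINC02233 (1.85 ± 0.32) and, named after its values were seen, LINC01570 (2.99 ± 0.50). Neither the counts nor the balance held under some other settings, which gave 13 higher and 11 lower with only the 6 libraries compared, 8 and 3 with no filter, and 1 lower each with filterByExpr, a mean of at least 10 counts and the ComBat-adjusted table. DESeq2 called 0 lower. Shares over all genes are not given for these other settings. In the fit with the chosen settings 13 members higher and 11 lower had an unadjusted p under 0.05. Of the 17653 genes with a mean of at least 10 counts, 1149 and 1253 did. The 0.0293 to 0.130 CPM of LINC00463 in Δ22 lay below the 0.351 to 0.923 CPM in DAF, whereas the 1.67 CPM of LINC01249 in Δ22 replicate 2 was above its 1.19 CPM in DAF replicate 1. The calls of LINC00463, LINC01249 and LINC02233 were lost in 7, 5 and 4 of the 26 alternatives. The count higher was 0 without Δ22 replicate 1, 2 without Δ22 replicate 3 and 1 without DAF replicate 2 or replicate 3, and the count lower was 2 without WT-EF replicate 3.

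Small differences were also found among the abundant LINC genes. LINC00667 measured 22.8, 18.99 and 22.7 CPM in iLuc and 20.8, 20.7 and 20.4 in iEF (log2 fold change 0.06 ± 0.10), and its groups overlapped. LINC00662 (0.09 ± 0.16), LINC00339 (-0.14 ± 0.13) and LINC00630 (0.15 ± 0.14) had the next smallest differences among members with a mean of at least 100 counts. On the ComBat-adjusted table LINC00667 (0.25) and LINC00630 (0.27) were called higher in iLuc. Exons of LINC00339 share 51.0% of their length with another annotated gene. LINC01128 (-0.45 ± 0.13) and LINC01963 (-0.37 ± 0.11), both among the 6 most abundant members, were called lower in iLuc, by under 1.5-fold. Each call was lost in 4 of the 26 alternatives, for LINC01128 on the ComBat-adjusted table and without iLuc or iEF replicate 1, and for LINC01963 on that table and without iEF replicate 3. Of 17 widely studied LINC genes looked for, 5 were members. LINC00665 was higher in iLuc (0.95 ± 0.19, adjusted p = 0.000805), and LINC00473, an RNA induced by cAMP signalling, was lower (-2.11 ± 0.58, adjusted p = 0.00821) at 0.0299 to 0.168 CPM in iLuc and 0.337 to 0.436 CPM in iEF, a call that was lost without replicate 1 of all conditions. The others were LINC00511 and LINC00707, described above, and LINC00662.

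The nearest protein-coding gene with a mean of at least 10 counts was set beside each located member. For iLuc against iEF, 70 of the 93 located members that were called had a nearest coding gene that was called too, 54 in the same direction and 16 in the opposite one. These 75.3% stand beside 61.2% of the nearest genes of the 67 members not called (41 of 67) and 63.1% of all 13640 coding genes at this count minimum. Where the neighbour lay over 100 kb away, 30 of 41 were called (73.2%), 21 in the same direction and 9 in the opposite one. The median distance between the start sites was 67169 bp. For the 30 members with a start within 10 kb of a coding gene's start, Pearson's r between the log2 fold changes was 0.842 and Spearman's rho 0.593, and for all 160 they were 0.428 and 0.387. These correlations run across genes measured in the same 6 libraries and are given as a description. Without LINC00463 they were 0.710 and 0.550 over 29 pairs. The neighbour of LINC00463, AMER2, a regulator of Wnt signalling that starts 7791 bp away on the same strand, measured 298 CPM in iLuc and 8.09 CPM in iEF (5.36 ± 0.40).

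Divergent pairs are given as examples, chosen after their values were seen. LINC02202 starts 567 bp from EBF1, a transcription factor gene, and the log2 fold changes were -3.58 for the RNA and -2.82 for EBF1. LINC01265, now called the divergent transcript of OSMR, starts 29 bp from that cytokine receptor gene, and the values were -1.49 and -2.40. LINC01547 starts 84 bp from SLX9 and rose by 4.43 while SLX9 rose by 0.57. LINC01134 starts 54 bp from C1orf174 and fell by 1.51 on the log2 scale, where C1orf174 was not called (0.13, adjusted p = 0.244). LINC01473 was higher (1.01) and its divergent neighbour ZC3H15 lower (-0.42). Within 10 kb, 17 members were called, 14 of them beside a called coding gene (82.4%), 12 in the same direction and 2 in the opposite one.

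**Figure D5:**
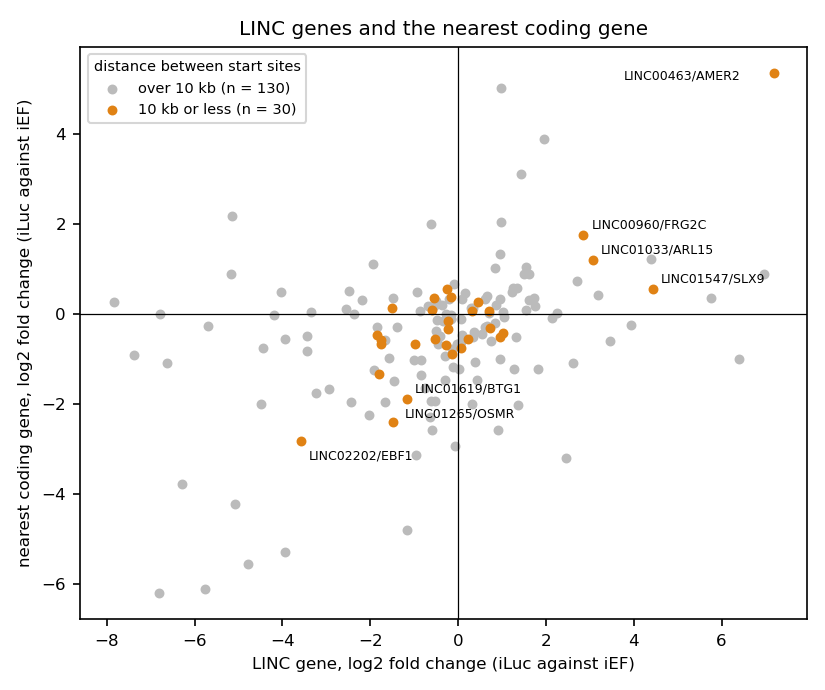
Log2 fold change of each located member (horizontal axis) and of its nearest protein-coding gene (vertical axis) for iLuc against iEF. Orange points are the 30 pairs with start sites at most 10 kb apart and grey points the other 130. LINC00463 and AMER2 stand at the upper right, at 7.19 and 5.36.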

How the data were processed

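RNA-seq of total RNA from 15 A673 libraries was used, 3 for each of 5 conditions, with condition and replicate number taken from the sample labels. The authors used STAR (2.5.1b per the submitters' processing notes) for alignment to hg19, and htseq-count in intersection-strict mode for the number of reads per gene. The deposited counts are raw whole numbers. A further table that the authors deposited holds a signal, the counts after ComBat adjustment, which is neither whole nor scaled for depth and served as an alternative only. The authors' own fold changes and p-values were not used, and neither were 3 value columns that match no sample here. Symbols came from the deposited table of 27002 genes. GENCODE (release 44, on GRCh37) names 291 LINC genes with a mean of at least 10 counts, and 115 of these have no symbol in that table and were therefore not members. Another 40 of them carry a different name there and were not members either.

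Comparisons were fitted with edgeR 4.0.16 (R 4.3.3), on genes with a mean of at least 1 count (28793), with TMM scaling, condition and replicate number as a block, all 15 libraries in 1 quasi-likelihood fit, and Benjamini-Hochberg adjustment over all genes in each of 7 comparisons. The study's methods adjust each replicate set, so the block was kept in the model. Deviations from the group means had a median r of 0.176 between libraries of the same number (30 pairs, -0.190 to 0.804, 21 over 0.1). For different numbers it was -0.0867 (60 pairs). Subtracting the group means ties the second value to the first, so it is no independent baseline. The labels do not say whether libraries came from separate infections, so p-values measure the spread between these libraries. Taken over all genes with enough reads, that spread exceeded counting noise, the mean chi-square per gene being 12.9 to 83.2 in 15 pairs of libraries. It was scaled by total counts and was not computed for the members alone. On simulated data for WT-EF against iEF with 28202 genes, 44 of 100 genes changed by 1 on the log2 scale and 96 of 100 changed by 2 were called, with 4 unchanged genes called. The simulation gave every gene 1 fixed dispersion and no replicate effect, and changed only genes with a mean of at least 10 counts. Its figures therefore do not measure power or error rate for the members.

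Members and gene lists were chosen with earlier results of these data known. Named members had an adjusted p under 0.05, an absolute log2 fold change over 1, a mean count of 30 or more and 3 replicate sets that agreed in direction, and were ranked by fitted change (10 in each direction for iLuc against iEF, 6 for WT-EF against iEF, 4 for DAF and for Δ22 against iEF, and 3 elsewhere). The 6 most abundant members, the 4 with the smallest change for iLuc against iEF and 5 members from a list of 17 widely studied LINC genes were named as well. Coordinates are those of GRCh37, which is the same assembly as hg19, with a newer annotation than that used for counting. Where a named fold change set a group against 1 to 3 reads in all its libraries together, the ratio of pooled counts is given with an exact 95% interval that covers counting error only. The 26 alternatives were size factors from DESeq2 1.42.0 in edgeR, DESeq2's Wald test, 3 filters on low counts, no block, only the 6 libraries compared, limma 3.58.1 on the ComBat-adjusted counts as log2(CPM + 1), and fits without each of the 15 libraries or each of the 3 replicate numbers.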

Additional observations from a re-analysis of the deposited data

Results flagged for a closer look

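LINC00704 moved in opposite directions with WT-EF and with DAF. Its WT-EF libraries measured 0.914, 0.872 and 0.479 CPM, all below the 2.12 to 3.26 CPM of iEF, and its DAF libraries measured 7.03, 6.44 and 8.35 CPM, all above them. The difference between WT-EF and DAF was tested directly in the edgeR fit and was -3.27 on the log2 scale (SE 0.42, adjusted p = 5.14e-05). Exons of LINC00704 share 10.7% of their length with another annotated gene.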

How the results depend on the processing

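Of 62 results for single named members, 48 kept their direction and their side of the threshold in all 26 alternatives, 12 lost their call in at least 1, 2 gained one, and none was called in the opposite direction. Counts for iLuc against iEF and for WT-EF against iEF stayed within 1.5 times the main count outside the fits that left out libraries. The small counts moved most. For Δ22 against iEF, members higher numbered 10 with no filter on low counts, 4 with edgeR's filterByExpr, 4 with a mean of at least 10 counts, 6 with DESeq2 and 4 with limma on the ComBat-adjusted table, and members lower 2 with no filter and 1 with only the 6 libraries compared. For DAF against iEF, members higher numbered 28 with no filter and members lower 10 with only the 6 libraries compared. For WT-EF against iLuc, members lower numbered 11 on the ComBat-adjusted table. For WT-EF against DAF, members higher numbered 41 on that table. For DAF against Δ22, members higher numbered 8 with no filter and 13 with the 6 libraries, and members lower 3 with no filter, 1 each with filterByExpr, a mean of at least 10 and the ComBat-adjusted table, and 11 with the 6 libraries. Shares over all genes are not given for these fits, and the cause was not tested.

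Without the replicate block, members lower in WT-EF against iLuc numbered 4 in place of 7, and the calls of LINC01249 for WT-EF against iLuc and DAF against Δ22 and of LINC00707 for DAF against iEF were lost. For iLuc against iEF the model without the block gave 40 higher and 52 lower. When single libraries or a replicate number of all conditions were left out, the counts ranged from 23 to 36 (higher, WT-EF against iEF, with 24 without WT-EF replicate 3), 0 to 4 and 0 to 1 (higher and lower, Δ22 against iEF), 10 to 21 and 1 to 10 (DAF against iEF), 14 to 39 (16 without replicate 1 of all conditions) and 1 to 13 (WT-EF against iLuc), 21 to 41 (lower, WT-EF against DAF, with 25 without WT-EF replicate 3), and 0 to 5 and 0 to 2 (DAF against Δ22).

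Relative to the deposited total in place of the TMM-scaled size, the summed CPM was 514 in iLuc, 354 in iEF, 461 in WT-EF and 363 in Δ22. Without LINC00998 it was 418 in iLuc, 359 in iEF, 373 in WT-EF, 355 in Δ22 and 360 in DAF. Without the 3 most abundant members, an alternative chosen after seeing the data, it was 287, 351, 315, 347 and 343 in the same order. With 87 members averaging under 30 counts, a change of 1 on the log2 scale could often not be detected at this depth.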
